A study of Mus musculus with 9 samples.

Results

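Integrins are the transmembrane receptors through which cells bind the extracellular matrix, and the 10 subunits described here are the alpha chains Itga3, Itga5, Itga6, Itga7, Itga9 and Itgav and the beta chains Itgb1, Itgb4, Itgb5 and Itgb8. All probe sets annotated to these symbols were taken, which gave 30 probe sets of 45037 on the array, and 10 genes of 18193. The 10 subunits were selected on measured values of these same arrays, and which comparison decided the choice is not recorded, so all 3 comparisons are treated as used. The adjusted p-values given for the subunits therefore describe these arrays and are no independent test. The cells were Neuro2a, an established line derived from a neuroblastoma of a mouse, a tumour of the sympathetic lineage. They had received siRNA for 48 h in 3 groups of 3 arrays. The groups were siMyT1, against the zinc finger transcription factor Myt1, siLSD1, against the histone demethylase LSD1 that Kdm1a encodes, and siControl, the control siRNA. No group is labelled with any other genotype or agent, and a single cell line was used throughout. Both knockdowns are set against the same siControl arrays, so their differences from siControl are not independent of each other.

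An integrin is a pair of 1 alpha and 1 beta chain, and the pair decides which ligand is bound. Chains alpha3, alpha6 and alpha7 pair with beta1 to bind laminins of the basement membrane, alpha6 also pairs with beta4 to anchor keratin filaments in the hemidesmosomes of epithelia, alpha5 pairs with beta1 to bind fibronectin, and alpha9 pairs with beta1 to bind tenascin and other ligands. The alphav chain pairs with beta1, beta5 or beta8, among others, and binds ligands that carry the RGD motif, vitronectin and latent TGF-beta among them. Inside the cell, many beta tails are held by talin, kindlin and a complex around integrin-linked kinase, which tie them to actin. In the nervous system integrins are known for their part in neurite outgrowth and in the migration of neural crest cells.

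Values are intensities on the linear scale of the deposited table, in units whose scaling is not given in the sources used here. A gene was read from its probe set of highest mean, and its differences are on the log2(value + pseudocount) scale, which understates the change of dim genes. A gene or probe set is called when limma's two-sided p, adjusted by the Benjamini-Hochberg method over all genes or all probe sets, lies under 0.05. Each targeted gene fell in its own knockdown. Myt1 averaged 0.660 ± 0.21 units on siMyT1 arrays, 6.95 ± 0.72 on siLSD1 arrays and 4.90 ± 0.34 on siControl arrays (SD, n = 3 each), with log2 -2.60 in siMyT1 minus siControl (adjusted p = 1.25e-06). Kdm1a averaged 30.9 ± 1.6 units on siMyT1 arrays, 4.49 ± 0.40 on siLSD1 arrays and 29.0 ± 1.0 on siControl arrays, with log2 -2.64 in siLSD1 minus siControl (adjusted p = 3.01e-10). Array medians lay between 0.302 and 0.424 units. Over all genes, correlations between arrays were 0.992 to 0.994 within groups and 0.986 to 0.992 between groups. The 3'/5' ratio of the actin control probe sets averaged 1.11 ± 0.0049 on siMyT1 arrays, 1.17 ± 0.054 on siLSD1 arrays and 1.17 ± 0.017 on siControl arrays, and its part in the results was not tested. Nothing in the labels ties the replicates to separate cultures, and the p-values then reflect only how far these arrays spread, which may be technical. The number of arrays limits the precision, and an exact permutation test of 1 gene at this group size has a smallest possible p of 0.1.

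In siLSD1 cells 4 of the 10 subunits were called higher than in siControl cells (Itgb4, Itga6, Itgav and Itga3) and 0 were called lower, where 3.97% of all genes were called higher, 4.93% lower and 8.9% in either direction. In siMyT1 cells 2 of the 10 were called higher than in siControl cells (Itgav and Itga6) and 0 were called lower, where 5.12% of all genes were called higher, 2.29% lower and 7.41% in either direction. Set against each other, siMyT1 cells had 3 subunits called lower than siLSD1 cells (Itgb4, Itga3 and Itga6) and 1 called higher (Itga7), where 5.58% of all genes were called lower, 13.2% higher and 18.8% in either direction. The subunits were chosen with these values known, so nothing is read from the distance to those percentages. The median log2 difference over the 10 subunits was 0.21 in siMyT1 minus siControl, 0.15 in siLSD1 minus siControl and -0.10 in siMyT1 minus siLSD1. Over all genes the same medians were 0.05, -0.03 and 0.09.

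**Figure D1:**
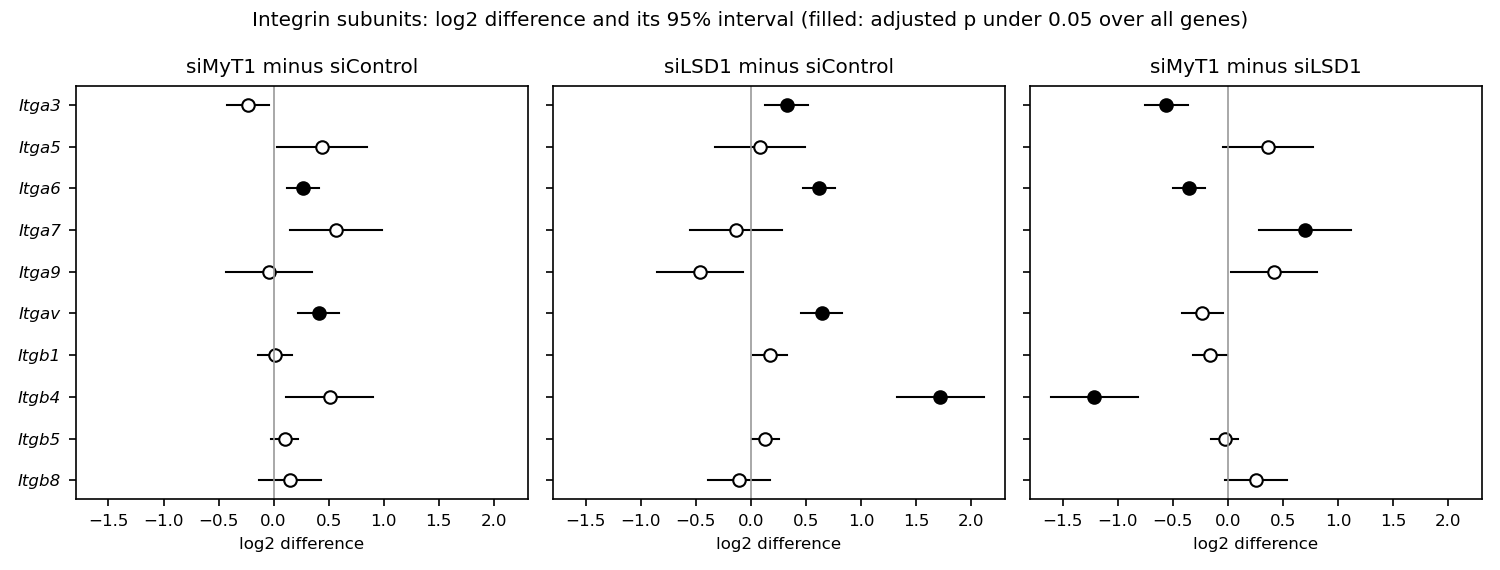
Each panel shows 1 comparison, with the log2 difference of each subunit as a circle and its 95% interval as a line, and filled circles for genes called after adjustment over all genes. In siLSD1 minus siControl Itgb4 stands farthest to the right at 1.72, Itga6 and Itgav lie at 0.62 and 0.64, and Itgb1 and Itgb5 stay within 0.2 of zero.

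The arrays of the groups did not overlap for more subunits than were called. In siMyT1 against siControl 5 subunits lay wholly higher and 1 wholly lower, where 24% of all genes had groups that did not overlap. In siLSD1 against siControl the counts were also 5 and 1, where the share of all genes was 26.8%. In siMyT1 against siLSD1 3 lay wholly higher and 5 wholly lower, where the share was 33%. Taken by probe set, 3 of 30 were called in siMyT1 against siControl (all higher, where 3.24% of all probe sets were called), 6 of 30 in siLSD1 against siControl (all higher, 5.05%), and 6 of 30 in siMyT1 against siLSD1 (2 higher and 4 lower, 11.2%). Brightness on the array differed widely: 5 of the 10 subunits (Itga5, Itga7, Itga9, Itgb4 and Itgb8) were dimmer than the median gene in their mean over all arrays, and 12 of the 30 probe sets were dimmer than the median probe set. Probe sets bind their targets unequally, so these ranks say how bright a signal was and not how much RNA 1 subunit had relative to another.

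**Figure D2:**
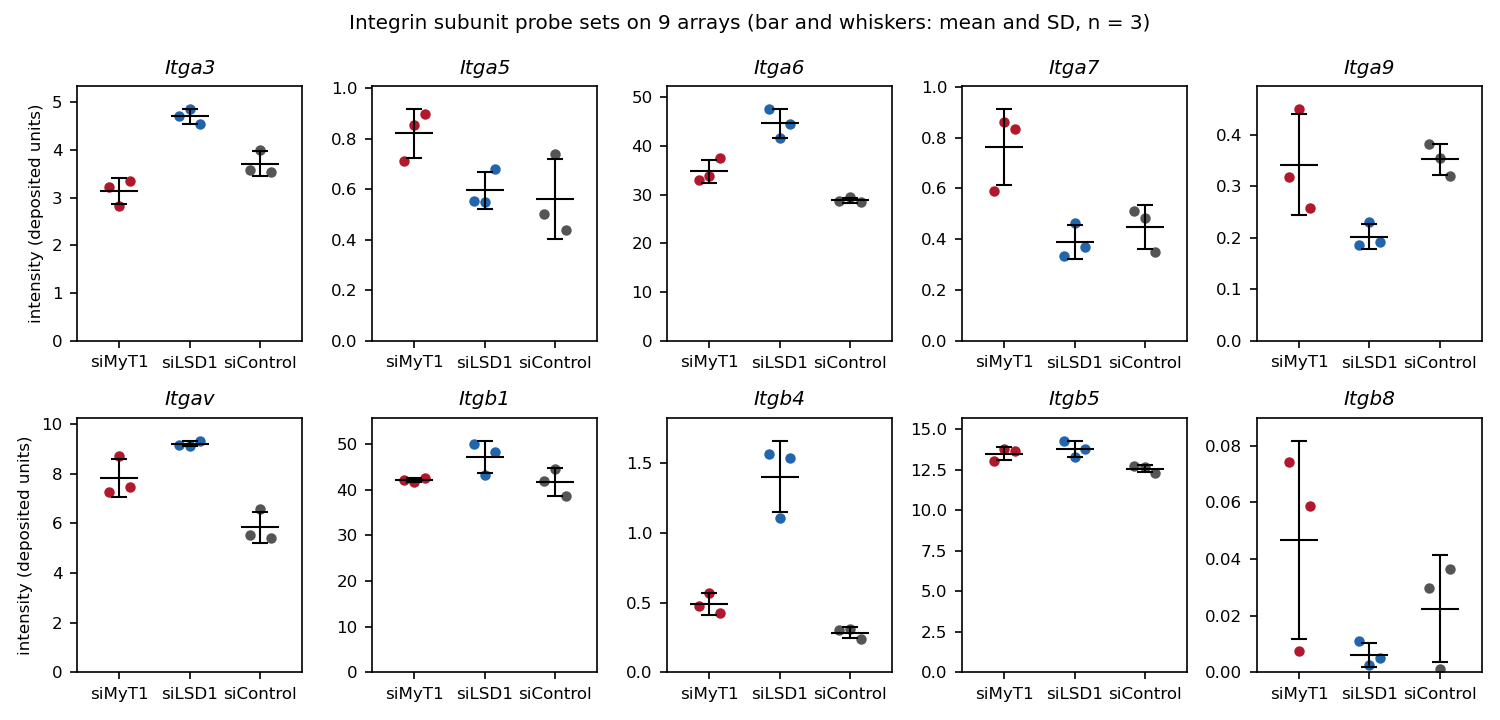
Each panel shows the 9 arrays of 1 subunit's brightest probe set as points, with intensity in deposited units on an axis that starts at 0, and the mean and SD of each group of 3 as a bar and whiskers. The siLSD1 points stand clear above both other groups for Itga3, Itga6, Itgav and Itgb4, the siMyT1 points for Itga7, and Itgb8 lies under 0.08 units on every array.

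Itgb4, the beta chain of the hemidesmosome receptor, had the largest difference in siLSD1 among the 10 subunits. Its only probe set, 1427387_a_at, gave 0.476, 0.572 and 0.423 units on the siMyT1 arrays, 1.57, 1.11 and 1.54 on the siLSD1 arrays, and 0.302, 0.312 and 0.242 on the siControl arrays. The 3 groups did not overlap, with siLSD1 highest, siMyT1 between and siControl lowest. The siLSD1 mean of 1.40 ± 0.26 units was 492% of the siControl mean of 0.286 ± 0.038, with a log2 difference of 1.72 (SE 0.18, 95% interval 1.32 to 2.12, adjusted p = 6.39e-05). The siMyT1 mean of 0.491 ± 0.076 was 172% of the siControl mean, and this difference was not called (log2 0.51, SE 0.18, adjusted p = 0.125). Against siLSD1 the siMyT1 mean was 34.9% as high (log2 -1.21, SE 0.18, adjusted p = 0.000531). The gene is dim, and its log2 difference in siLSD1 runs from 1.16 with a pseudocount of 100 to 2.26 with a pseudocount of 1. In these bulk samples, more cells with Itgb4 RNA and more such RNA per cell cannot be told apart.

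Itga6, the alpha chain that pairs with either beta4 or beta1, had a bright signal. Its probe set 1422445_at gave 33.1, 33.9 and 37.5 units on the siMyT1 arrays, 47.6, 41.7 and 44.6 on the siLSD1 arrays, and 28.7, 29.5 and 28.5 on the siControl arrays. Again no groups overlapped, in the same order as for Itgb4. The siLSD1 mean was 44.6 ± 2.9 units against 28.9 ± 0.53 in siControl (log2 0.62, SE 0.07, adjusted p = 6.54e-05). The siMyT1 mean was 34.8 ± 2.3 units (log2 0.26 over siControl, SE 0.07, adjusted p = 0.0302). In the direct comparison Itga6 was lower in siMyT1 than in siLSD1 by log2 -0.36 (SE 0.07, adjusted p = 0.00226). Its other probe set, 1422444_at, gave 19.3, 19.0 and 20.9 units in siMyT1, 27.3, 28.1 and 25.0 in siLSD1, and 16.0, 19.0 and 15.3 in siControl. There siLSD1 also stood apart (log2 0.67 over siControl, adjusted p = 0.000518 over all probe sets), while siMyT1 and siControl overlapped (log2 0.23, adjusted p = 0.184). Adjusted over all probe sets, the siMyT1 difference of the brighter probe set also missed the threshold (adjusted p = 0.0574). Its call by gene was lost without siMyT1 replicate 2 or 3 or any siControl replicate, with adjusted p up to 0.115, and with median centring (adjusted p = 0.231).

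Itga3, the alpha chain of a laminin receptor with beta1, differed mainly between the knockdowns. Its brightest probe set, 1455158_at, gave 3.22, 2.82 and 3.35 units on the siMyT1 arrays, 4.70, 4.85 and 4.54 on the siLSD1 arrays, and 3.59, 4.005 and 3.54 on the siControl arrays. The groups did not overlap, with siLSD1 highest and siMyT1 lowest. Itga3 averaged 3.13 ± 0.28 units in siMyT1 and 4.70 ± 0.15 in siLSD1 (log2 -0.56, SE 0.09, adjusted p = 0.000764), and 3.71 ± 0.26 in siControl. Over siControl, siLSD1 was higher by log2 0.33 (SE 0.09, adjusted p = 0.0381), and siMyT1 differed by log2 -0.23 (SE 0.09, adjusted p = 0.150). The siLSD1 call was lost without any 1 siLSD1 replicate and without siControl replicate 1 or 3, with adjusted p up to 0.140, and over all probe sets its adjusted p was 0.0527. That call was also lost without an intensity trend and with the replicate block. The other probe sets, 1460305_at and 1421997_s_at, were not called in any comparison. In siLSD1 minus siControl they gave log2 0.08 and 0.68, and in siMyT1 minus siControl -0.06 and 0.44, the latter opposite in sign to 1455158_at. With the mean of all 3 probe sets siMyT1 minus siControl was log2 0.05 (adjusted p = 0.887), and siMyT1 minus siLSD1 was log2 -0.31 (adjusted p = 0.0580).

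RefSeq lists 2 start sites for Itga3 in assembly GRCm38.p6. Both 300-base promoter windows, which run from 250 bases before the start to 50 after it, are shown because they differ in base composition. Itga3 lies on the minus strand of chromosome 11. The window at chr11:95076665-95076964 is 66.7% G or C with 24 CpG, and the one at chr11:95069149-95069448 is 52.3% G or C with 5 CpG, where the median over 32851 RefSeq windows is 52.7% G or C. Capitals mark matches to the motifs searched.
Itga3 CpG-rich window: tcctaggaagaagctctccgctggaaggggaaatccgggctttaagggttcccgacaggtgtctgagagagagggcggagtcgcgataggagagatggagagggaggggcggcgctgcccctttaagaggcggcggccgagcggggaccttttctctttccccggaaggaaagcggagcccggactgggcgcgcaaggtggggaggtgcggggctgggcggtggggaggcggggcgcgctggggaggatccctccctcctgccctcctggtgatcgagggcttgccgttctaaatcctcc
Itga3 CpG-poor window: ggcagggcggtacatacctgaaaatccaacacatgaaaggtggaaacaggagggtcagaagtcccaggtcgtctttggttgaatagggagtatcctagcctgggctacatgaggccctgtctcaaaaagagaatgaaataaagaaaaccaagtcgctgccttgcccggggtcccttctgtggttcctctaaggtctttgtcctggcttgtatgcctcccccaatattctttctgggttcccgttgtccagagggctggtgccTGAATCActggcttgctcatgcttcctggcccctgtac
The CpG-rich window holds none of the motifs. The CpG-poor window has 1 match to the AP-1 motif TGANTCA, written TGAATCA, which begins at position 13 when the first transcribed base is counted as 1.

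Itgav, the alpha chain of the RGD-binding and TGF-beta-activating receptors, was called higher in both knockdowns. Its brightest probe set, 1452784_at, gave 7.27, 8.69 and 7.48 units on the siMyT1 arrays, 9.16, 9.12 and 9.32 on the siLSD1 arrays, and 5.54, 6.56 and 5.42 on the siControl arrays. The siControl arrays lay below all others, and the siLSD1 arrays lay above the siMyT1 arrays. Itgav averaged 7.81 ± 0.77 units in siMyT1 (log2 0.41 over siControl, SE 0.09, adjusted p = 0.0125), 9.20 ± 0.11 in siLSD1 (log2 0.64, SE 0.09, adjusted p = 0.00038), and 5.84 ± 0.62 in siControl. Between the knockdowns the difference of log2 -0.23 was not called (SE 0.09, adjusted p = 0.0778), although the arrays did not overlap. The siMyT1 call was lost without siMyT1 replicate 2, siControl replicate 1 or siControl replicate 3, with adjusted p up to 0.0604.

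The probe sets of Itgav split by brightness. Probe set 1432296_a_at gave 2.16, 2.72 and 2.17 units in siMyT1, 2.16, 2.19 and 2.26 in siLSD1, and 1.53, 1.64 and 1.27 in siControl. Probe set 1421198_at gave 1.94, 2.11 and 1.58 units in siMyT1, 2.21, 1.69 and 1.84 in siLSD1, and 1.0999, 1.13 and 1.33 in siControl. In both, the 2 knockdowns overlapped each other and lay above siControl, with log2 0.61 and 0.58 in siMyT1 minus siControl (adjusted p = 0.0183 and 0.0431 over all probe sets) and 0.53 and 0.60 in siLSD1 minus siControl (adjusted p = 0.0258 and 0.0255). The remaining probe sets, 1432679_at and 1432678_at, did not exceed 0.118 units on any array and were not called. Their log2 differences in siLSD1 minus siControl were -0.18 and -0.25. Averaging all 5 probe sets therefore lowered the siLSD1 difference to log2 0.27 (adjusted p = 0.231) and ended the siMyT1 call (log2 0.37, adjusted p = 0.0952).

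**Figure D3:**
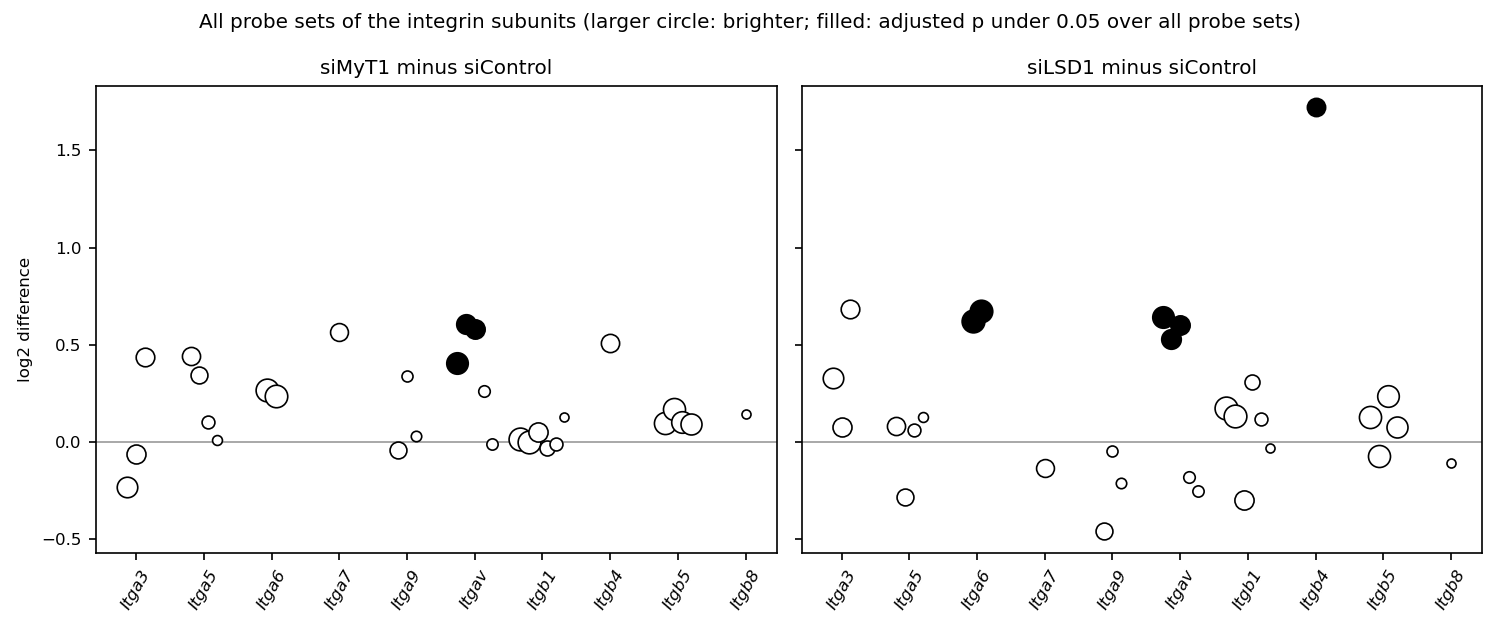
Each circle is 1 of the 30 probe sets, placed above its subunit at its log2 difference from siControl, larger when brighter and filled when called after adjustment over all probe sets. The filled circles are the 3 brighter Itgav probe sets in siMyT1 minus siControl, and in siLSD1 minus siControl those 3 with both Itga6 probe sets and Itgb4.

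The promoter window of Itgav is shown as that of a gene called in both knockdowns. It lies on the plus strand at chr2:83724147-83724446 of GRCm38.p6, from RefSeq, is 67.3% G or C with 24 CpG, and holds none of the motifs searched.
Itgav: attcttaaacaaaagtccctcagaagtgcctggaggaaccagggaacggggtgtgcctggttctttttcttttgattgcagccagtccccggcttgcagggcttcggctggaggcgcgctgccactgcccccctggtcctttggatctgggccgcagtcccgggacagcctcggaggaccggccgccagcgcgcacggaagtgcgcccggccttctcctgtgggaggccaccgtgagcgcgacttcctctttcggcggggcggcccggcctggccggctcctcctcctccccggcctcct
Windows were listed for 7 of the 10 subunits (all but Itga6, Itga7 and Itgb4), 8 windows in all. Of these windows 2 held the GC box GGGCGGG of Sp and Klf factors (25.6% of all windows), 2 held the AP-1 motif TGANTCA (7.81%), 1 held the Myt1 core AAAGTT (14.1%), 1 held the TEAD core GGAATG (14.7%) and 0 held the Egr motif GCGNGGGCG (5.55%). Both strands were searched, and of the motifs the GC box and the Egr motif can overlap. The AP-1 matches stood in windows of Itga3 and Itga9, the AAAGTT match in that of Itga5, and the GGAATG match in that of Itgb1. A match describes these letters only.

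Itgb1, the beta chain shared by most laminin and fibronectin receptors, was not called in any comparison of the main fit. Its probe set 1452545_a_at, brighter than 98.1% of all probe sets, gave 42.1, 41.7 and 42.6 units on the siMyT1 arrays, 50.1, 43.2 and 48.2 on the siLSD1 arrays, and 42.0, 44.6 and 38.5 on the siControl arrays. The siMyT1 and siControl arrays overlapped, as did the siLSD1 and siControl arrays, while every siMyT1 array lay below every siLSD1 array. The log2 difference was 0.02 in siMyT1 minus siControl (95% interval -0.14 to 0.17, adjusted p = 0.943) and 0.18 in siLSD1 minus siControl (95% interval 0.02 to 0.33, adjusted p = 0.171). In siMyT1 minus siLSD1 it was -0.16 (95% interval -0.31 to -0.0052, adjusted p = 0.151). With quantile normalization the adjusted p of Itgb1 was 0.0305 in siLSD1 minus siControl and 0.0173 in siMyT1 minus siLSD1, both under the threshold. None of its 6 probe sets was called. The second brightest, 1426918_at, averaged 30.5 ± 1.5 units in siMyT1, 33.5 ± 2.8 in siLSD1 and 30.5 ± 1.1 in siControl.

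Itgb5, a beta partner of alphav in vitronectin receptors, was not called by gene in any comparison of the main fit. With quantile normalization it was called higher in siLSD1 than in siControl (adjusted p = 0.0269). Probe set 1456133_x_at gave 13.04, 13.8 and 13.7 units on the siMyT1 arrays, 14.3, 13.3 and 13.8 on the siLSD1 arrays, and 12.7, 12.7 and 12.3 on the siControl arrays. Every knockdown array lay above every siControl array, by log2 0.10 in siMyT1 (SE 0.06, adjusted p = 0.361) and 0.13 in siLSD1 (SE 0.06, adjusted p = 0.203), and neither was called. Among its 4 probe sets, 1417533_a_at gave 12.1, 13.1 and 13.9 units in siMyT1, 11.5, 10.4 and 11.1 in siLSD1, and 11.5, 12.2 and 11.0 in siControl. That probe set was called higher in siMyT1 than in siLSD1 (log2 0.24, adjusted p = 0.0471 over all probe sets), while the brightest probe set gave log2 -0.03 in the same comparison. Probe set 1417534_at averaged 8.08 ± 0.84 units in siMyT1, 8.85 ± 0.13 in siLSD1 and 7.49 ± 0.20 in siControl, and was not called.

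Itgb8, the beta chain of a TGF-beta-activating alphav receptor, was near the bottom of the scale. Its only probe set, 1436223_at, was brighter than 6.11% of probe sets and gave 0.0743, 0.0075 and 0.0587 units in siMyT1, 0.0109, 0.00251 and 0.00524 in siLSD1, and 0.0299, 0.00124 and 0.0365 in siControl. The groups overlapped, no difference was called (adjusted p = 0.609, 0.730 and 0.215), and its log2 differences of 0.15 in siMyT1 minus siControl, -0.11 in siLSD1 minus siControl and 0.25 in siMyT1 minus siLSD1 became 0.88, -0.92 and 1.80 with a pseudocount of 1, also not called.

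Itga7, a laminin-binding alpha chain best known from skeletal muscle, was the 1 subunit called higher in siMyT1 than in siLSD1. Its only probe set, 1418393_a_at, gave 0.591, 0.863 and 0.833 units on the siMyT1 arrays, 0.336, 0.465 and 0.370 on the siLSD1 arrays, and 0.512, 0.485 and 0.350 on the siControl arrays. All siMyT1 arrays lay above the others, and siLSD1 overlapped siControl. Itga7 averaged 0.763 ± 0.15 units in siMyT1 and 0.390 ± 0.067 in siLSD1 (log2 0.70, SE 0.19, adjusted p = 0.0221), against 0.449 ± 0.087 in siControl. The siMyT1 mean was 170% of the siControl mean, a difference that was not called (log2 0.57, SE 0.19, adjusted p = 0.102). The call between the knockdowns was lost without siMyT1 replicate 2 or 3 or siLSD1 replicate 1 or 3, with adjusted p up to 0.0820.

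Itga5, the alpha chain of the fibronectin receptor, gave 0.713, 0.853 and 0.896 units on the siMyT1 arrays, 0.554, 0.551 and 0.679 on the siLSD1 arrays, and 0.502, 0.739 and 0.439 on the siControl arrays with probe set 1423267_s_at. The siMyT1 arrays lay above the siLSD1 arrays, and siControl overlapped both. None of its 4 probe sets was called, and the log2 differences of the brightest were 0.44 in siMyT1 minus siControl (SE 0.19, adjusted p = 0.201) and 0.36 in siMyT1 minus siLSD1 (adjusted p = 0.224). Itga9, the alpha chain of a tenascin receptor, gave 0.317, 0.450 and 0.259 units in siMyT1, 0.186, 0.230 and 0.192 in siLSD1, and 0.382, 0.354 and 0.320 in siControl with probe set 1460285_at. Here the siLSD1 arrays lay below all others. The log2 difference was -0.46 in siLSD1 minus siControl (SE 0.18, adjusted p = 0.149) and 0.42 in siMyT1 minus siLSD1 (adjusted p = 0.132), and none of its 3 probe sets was called.

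Of 16 further integrin subunits listed for comparison, 14 were measured. In siLSD1 minus siControl 2 were called higher and 1 lower, in siMyT1 minus siControl 0 and 1, and in siMyT1 minus siLSD1 1 and 0, with medians of -0.09, 0.10 and 0.14. Shares of all genes called higher and lower were, in that order, 3.97% and 4.93%, 5.12% and 2.29%, and 13.2% and 5.58%. The medians of all genes were -0.03, 0.05 and 0.09. This list and those below were chosen with earlier results known, so nothing is read from the distance to these values. Itga1, the alpha chain of a collagen receptor, averaged 1.41 ± 0.31 units in siMyT1, 1.75 ± 0.19 in siLSD1 and 1.03 ± 0.083 in siControl, and rose in siLSD1 (log2 0.66, adjusted p = 0.0196). Itgb3, a further beta partner of alphav, averaged 0.764 ± 0.22, 1.16 ± 0.20 and 0.603 ± 0.11 units in siMyT1, siLSD1 and siControl, and rose in siLSD1 (log2 0.76, adjusted p = 0.0316). Itgb2, the beta chain of leukocytes, averaged 0.881 ± 0.054 units in siMyT1, 0.359 ± 0.058 in siLSD1 and 0.711 ± 0.10 in siControl. It fell in siLSD1 (log2 -0.71, adjusted p = 0.0199) and was higher in siMyT1 than in siLSD1 (log2 0.96, adjusted p = 0.00158). Itga8, a beta1 partner that binds nephronectin, fell in siMyT1 to 0.496 ± 0.045 units, against 0.920 ± 0.035 in siControl (log2 -0.69, adjusted p = 0.0218). In siLSD1 Itga8 averaged 0.589 ± 0.074 units, with all arrays below siControl, and was not called (log2 -0.51, adjusted p = 0.0717). The knockdowns were not called apart for Itga8 (log2 -0.18, adjusted p = 0.517), so whether its fall was particular to siMyT1 cannot be told. The calls against siControl were each lost on leaving out 1 array: that of Itga1 without siLSD1 replicate 3 or siControl replicate 1 or 3 (adjusted p up to 0.106), those of Itgb3 and Itgb2 without siLSD1 replicate 1 or 2 or siControl replicate 1 or 3 (up to 0.119 and 0.0873), and that of Itga8 without siMyT1 replicate 2 or 3 or any siControl replicate (up to 0.0851).

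The laminin chains, ligands of alpha3, alpha6 and alpha7, were measured for 10 of 11 genes. In siMyT1 minus siControl 2 were called higher and 0 lower, in siLSD1 minus siControl 1 and 0, and in siMyT1 minus siLSD1 2 and 1. Their medians were 0.21, 0.02 and 0.11. Shares of all genes called higher and lower were, in that order, 5.12% and 2.29%, 3.97% and 4.93%, and 13.2% and 5.58%. The medians of all genes were 0.05, -0.03 and 0.09. Lama4, the alpha4 chain, averaged 25.8 ± 1.6 units in siMyT1, 33.5 ± 2.7 in siLSD1 and 20.0 ± 0.53 in siControl. It rose in both knockdowns, by log2 0.36 in siMyT1 (adjusted p = 0.00756) and by 0.73 in siLSD1 (adjusted p = 2.43e-05), and was lower in siMyT1 than in siLSD1 (log2 -0.37, adjusted p = 0.00224). Its siMyT1 call was lost with median centring, the mean of all probe sets or no intensity trend, with adjusted p up to 0.0920. Lamb2, the beta2 chain, averaged 2.09 ± 0.091 units in siMyT1, 1.18 ± 0.19 in siLSD1 and 1.16 ± 0.15 in siControl, and rose in siMyT1 (log2 0.75, adjusted p = 0.00769). Lama2, the alpha2 chain, averaged 0.930 ± 0.11 units in siMyT1 and 0.216 ± 0.15 in siLSD1 (log2 1.51, adjusted p = 0.00117), against 0.444 ± 0.12 in siControl. Lama5, the alpha5 chain, was not called, with log2 0.02 in siMyT1 and 0.29 in siLSD1 over siControl.

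Fibronectin and other matrix ligands, many with an RGD motif, were measured for 12 of 14 genes. In siMyT1 minus siControl 3 were called higher and 0 lower, in siLSD1 minus siControl 0 and 1, and in siMyT1 minus siLSD1 5 and 0, with medians of 0.32, 0.05 and 0.38. Shares of all genes called higher and lower were, in that order, 5.12% and 2.29%, 3.97% and 4.93%, and 13.2% and 5.58%. The medians of all genes were 0.05, -0.03 and 0.09. Fn1, which encodes fibronectin, averaged 49.3 ± 1.9 units in siMyT1, 30.8 ± 1.5 in siLSD1 and 28.9 ± 1.8 in siControl. It rose in siMyT1 over siControl (log2 0.77, SE 0.07, adjusted p = 2.76e-05) and over siLSD1 (log2 0.68, adjusted p = 1.68e-05), while siLSD1 differed from siControl by log2 0.09 (adjusted p = 0.492). Mfge8, an RGD protein that alphav receptors bind, averaged 8.56 ± 0.90 units in siMyT1, 4.84 ± 0.35 in siLSD1 and 5.02 ± 0.18 in siControl (log2 0.74 in siMyT1 minus siControl, adjusted p = 0.000272). Tgfb1, whose latent form binds alphav receptors, averaged 3.27 ± 0.42 units in siMyT1, 1.75 ± 0.22 in siLSD1 and 1.74 ± 0.13 in siControl (log2 0.83 in siMyT1 minus siControl, adjusted p = 0.00173, or 0.50 and 0.130 with the mean of all its probe sets). Ccn1, a matricellular protein, was called only between the knockdowns (log2 0.91, adjusted p = 0.00447), and without probe sets marked s, x or a the value was 0.03. The 1 ligand called lower in siLSD1 was Npnt, nephronectin, named here after its values were seen (log2 -0.53, adjusted p = 0.0249).

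Genes of integrin adaptors and focal adhesions were measured for 22 of 25. In siMyT1 minus siControl 6 were called higher and 0 lower, in siLSD1 minus siControl 4 and 0, and in siMyT1 minus siLSD1 5 and 4, with medians of 0.14, 0.13 and 0.09. Shares of all genes called higher and lower were, in that order, 5.12% and 2.29%, 3.97% and 4.93%, and 13.2% and 5.58%. The medians of all genes were 0.05, -0.03 and 0.09. Actn1, the actin cross-linker alpha-actinin 1, averaged 33.7 ± 0.71 units in siMyT1, 39.1 ± 3.2 in siLSD1 and 27.6 ± 0.81 in siControl (log2 0.29, adjusted p = 0.0191 in siMyT1, and 0.50, adjusted p = 0.000339 in siLSD1). Its siMyT1 call was lost with the mean of all its probe sets (log2 0.17, adjusted p = 0.237), with median centring (adjusted p = 0.187) and without an intensity trend (adjusted p = 0.0912). Parvb, a parvin of the integrin-linked kinase complex, averaged 17.5 ± 0.81 units in siMyT1, 18.4 ± 0.86 in siLSD1 and 14.2 ± 0.81 in siControl (log2 0.29, adjusted p = 0.0156 in siMyT1, and 0.37, adjusted p = 0.00249 in siLSD1). With the mean of all its probe sets both calls were lost (log2 0.14, adjusted p = 0.722 in siMyT1, and 0.13, adjusted p = 0.766 in siLSD1), and the siMyT1 call also with median centring (adjusted p = 0.0759) and without an intensity trend (adjusted p = 0.0810). Parva, the other parvin, rose in siLSD1 with its brightest probe set (log2 0.36, adjusted p = 0.0019), and its probe sets disagree: without those marked s, x or a it gave log2 -0.10 (adjusted p = 0.662). Itgb1bp1, which binds the beta1 tail and holds the receptor inactive, averaged 9.10 ± 0.42 units in siMyT1, 6.30 ± 0.24 in siLSD1 and 7.11 ± 0.56 in siControl. It rose in siMyT1 over siControl (log2 0.35, adjusted p = 0.0121) and over siLSD1 (log2 0.52, adjusted p = 0.000314). The call of Itgb1bp1 over siControl was lost without an intensity trend (adjusted p = 0.0547). Leaving out arrays, the siMyT1 calls of Actn1, Parvb and Itgb1bp1 over siControl were each lost without siMyT1 replicate 2 or 3 or without siControl replicate 1, and those of Parvb and Itgb1bp1 also without siControl replicate 3 and that of Actn1 without siControl replicate 2 (adjusted p up to 0.0821, 0.0684 and 0.0563).

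Tetraspanins, which sit beside laminin-binding integrins in the membrane, and hemidesmosome partners were measured for all 7 listed genes. In siMyT1 minus siControl 2 were called higher and 0 lower, in siLSD1 minus siControl 3 and 0, and in siMyT1 minus siLSD1 1 and 2, with medians of 0.16, 0.19 and -0.17. Shares of all genes called higher and lower were, in that order, 5.12% and 2.29%, 3.97% and 4.93%, and 13.2% and 5.58%. The medians of all genes were 0.05, -0.03 and 0.09. Plec, whose product plectin links the beta4 tail to intermediate filaments, averaged 13.8 ± 0.68 units in siMyT1, 16.0 ± 1.8 in siLSD1 and 10.2 ± 1.0 in siControl. It rose by log2 0.44 in siMyT1 (adjusted p = 0.00986) and 0.64 in siLSD1 (adjusted p = 0.00047), and with the mean of all its probe sets by 0.25 (adjusted p = 0.0987) and 0.27 (adjusted p = 0.0664), past the threshold in neither. Cd151, the tetraspanin tied most closely to alpha3beta1 and alpha6beta4, averaged 21.6 ± 0.38 units in siMyT1, 28.9 ± 0.33 in siLSD1 and 22.4 ± 1.5 in siControl. It rose in siLSD1 (log2 0.37, adjusted p = 0.00153, or 0.20 and 0.159 with the mean of all probe sets) and was lower in siMyT1 than in siLSD1 (log2 -0.42, adjusted p = 0.000355, or -0.21 and 0.0735 with that mean). Cd9, a further tetraspanin, rose in siLSD1 to 21.7 ± 2.1 units, against 15.2 ± 1.1 in siControl (log2 0.50, adjusted p = 0.00111). Cd82 averaged 1.79 ± 0.098 units in siMyT1, 0.873 ± 0.10 in siLSD1 and 1.16 ± 0.22 in siControl, and was higher in siMyT1 than in siLSD1 (log2 0.90, adjusted p = 0.00138, or 0.63 and 0.128 with the mean of all its probe sets). Over siControl its siMyT1 call (log2 0.56, adjusted p = 0.0476) was lost without any 1 array of either group, with adjusted p up to 0.176, with the mean of all probe sets (log2 0.39, adjusted p = 0.490), and narrowly with the 2 groups alone, array weights or the replicate block (adjusted p = 0.0745, 0.0536 and 0.0522).

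**Figure D4:**
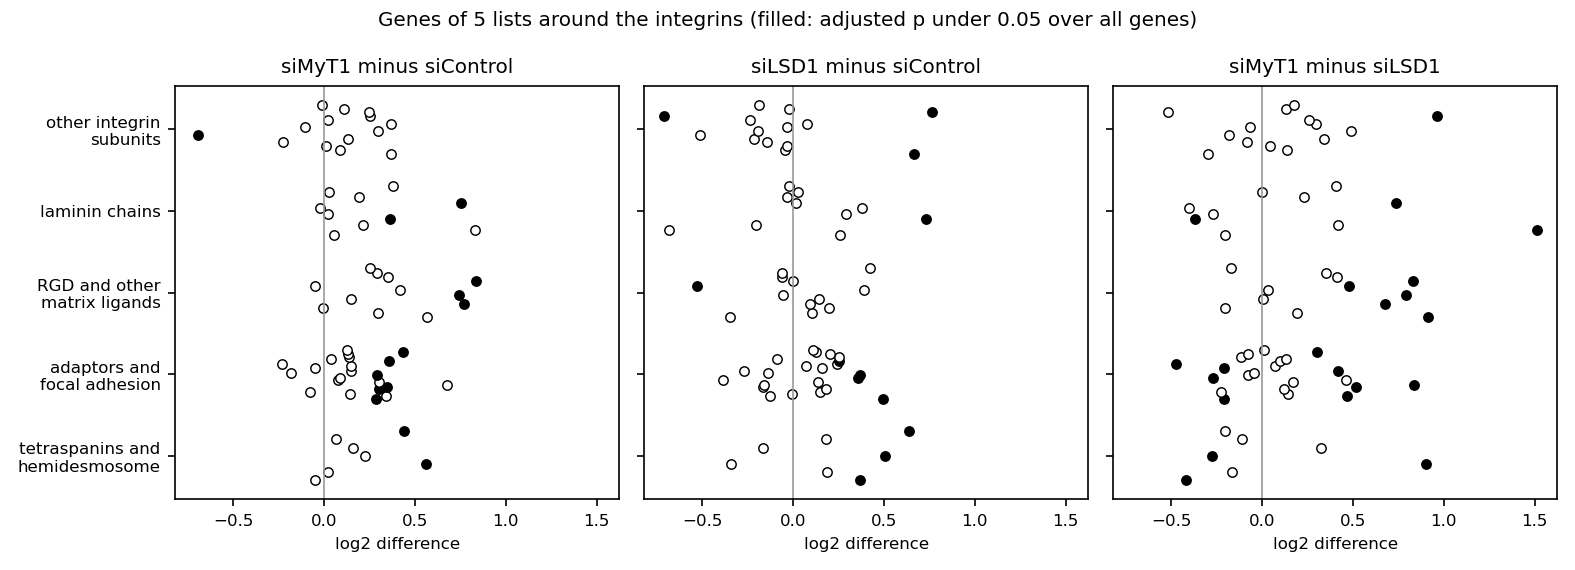
Each circle is 1 gene of 5 lists around the integrins, at its log2 difference in 1 of 3 comparisons and filled when called after adjustment over all genes. The filled ligand genes of siMyT1 minus siControl, among them Fn1 at 0.77, lie to the right of zero, and in siLSD1 minus siControl the filled laminin gene is Lama4 at 0.73.

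Genes whose pattern over the 9 arrays was most like that of Itgb4, among 9096 genes brighter than the median gene, were Clcn2, Deptor, Pmp22, Creb3l2 and Tmx4, with Pearson's r of log2 values of 0.987, 0.986, 0.985, 0.984 and 0.983. For Itgb1 they were Ndufa13, Mthfd1l, Dctn5, Pld3 and Vkorc1, with r of 0.976, 0.969, 0.949, 0.948 and 0.942. These correlations run over 9 arrays in 3 groups of the same cell line, and they were picked as the highest, so they describe the likeness only.

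Markers of the labelled cell type were present. Of 11 measured genes of neuroblastoma and sympathetic neurons 10 were brighter than the median gene, and their summed intensity ranged from 196 to 208 units on siMyT1 arrays, 270.4 to 300.3 on siLSD1 arrays and 248 to 265 on siControl arrays. Over siControl 0 of them were called higher and 5 lower in siMyT1, and 5 higher and 1 lower in siLSD1. Shares of all genes called higher and lower were 5.12% and 2.29% in siMyT1, and 3.97% and 4.93% in siLSD1. These markers thus moved with the groups beside the subunits, and their part in the results was not tested. Chgb, a secretory granule protein, averaged 30.5 ± 1.8 units in siMyT1, 55.5 ± 2.8 in siLSD1 and 49.8 ± 0.28 in siControl, and was called lower in siMyT1 (log2 -0.71, adjusted p = 3.15e-05) and not called in siLSD1 (log2 0.15, adjusted p = 0.173). Phox2a, a sympathetic transcription factor, averaged 17.0 ± 0.90 units in siMyT1, 28.1 ± 1.7 in siLSD1 and 21.3 ± 0.16 in siControl, lower in siMyT1 (adjusted p = 0.00757, or 0.0553 without an intensity trend) and higher in siLSD1 (adjusted p = 0.00132). Gap43, a growth cone protein, was also called lower in siMyT1 (log2 -0.36) and higher in siLSD1 (log2 0.36). Th, the rate-limiting enzyme of catecholamine synthesis, was called higher in siLSD1 (log2 0.58) and not called in siMyT1 (log2 -0.28). The 1 marker called lower in siLSD1 was Hand2, named here after its values were seen. Hand2 was called lower in both knockdowns (log2 -0.46, adjusted p = 0.00331 in siMyT1, and -0.38, adjusted p = 0.00698 in siLSD1). Epithelial markers, listed because alpha6beta4 is a receptor of epithelia, were low in all groups. Their 6 genes summed to 2.08 to 2.87 units in siMyT1, 1.98 to 2.23 in siLSD1 and 2.05 to 3.15 in siControl, with 1 above the median gene and 0 called over siControl in either knockdown. In siMyT1 minus siLSD1, where Itgb4 was lower, 1 of them, the keratin gene Krt14, was called higher, at 0.152 ± 0.071 units in siMyT1 and 0.0284 ± 0.014 in siLSD1 (log2 0.62, adjusted p = 0.0163). That call was lost without siMyT1 replicate 3 or siLSD1 replicate 1 (adjusted p up to 0.0610), with median centring (adjusted p = 0.0924) and with the mean of all its probe sets (log2 0.21, adjusted p = 0.241). Fibroblast markers (7 genes) summed to 2.34 to 2.81 units in siMyT1, 1.70 to 1.83 in siLSD1 and 1.58 to 2.17 in siControl, with Dcn called higher in siMyT1 (log2 0.61, adjusted p = 0.0292). That call was lost without siMyT1 replicate 2 or 3 or any siControl replicate (adjusted p up to 0.108), with the mean of all probe sets (log2 0.25, adjusted p = 0.461), with the 2 groups alone (adjusted p = 0.0568) and with the replicate block (adjusted p = 0.0593). Endothelial markers (4 genes) summed to 1.56 to 2.53 units in siMyT1, 1.08 to 1.45 in siLSD1 and 0.796 to 1.66 in siControl, with Tek called higher in siMyT1 (log2 1.03, adjusted p = 0.0101). Glial markers (3 genes) summed to 0.946 to 1.21, 0.694 to 1.16 and 0.861 to 1.47 units, and blood markers (2 genes) to 0.194 to 0.351, 0.185 to 0.306 and 0.233 to 0.265 units, in siMyT1, siLSD1 and siControl. None of the fibroblast, endothelial, glial or blood markers was above the median gene, and no marker was at 0 in a whole group. Whether the fibroblast and endothelial genes had a part in the siMyT1 results was not tested.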

How the data were processed

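The deposited table gives 1 linear intensity for each of 45101 probe sets on each of 9 arrays, made by the authors with steps not given in the sources used here. Per the labels, total RNA was labelled with biotin for a 1-colour array. Control probe sets (64) were left out. The platform annotation gave 34945 probe sets 1 symbol, 932 several and 9160 none, and 34741 matched the RefSeq table by Entrez ID. Values were multiplied by 163.6, which sets the 2% trimmed mean to 500, and a pseudocount of 32 (0.196 deposited units) was added before log2. Arrays were not normalized further. A gene was its brightest probe set. Group means over all 9 arrays were fitted with limma 3.58.1 (R 4.3.3) and an intensity trend, 6 residual and 6.84 prior degrees of freedom, and Benjamini-Hochberg adjustment over 18193 genes.

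The subunits, the gene lists and the tests were chosen with earlier results of these data known. Named genes were all subunits, the siRNA targets, in each list up to 4 genes of lowest adjusted p (of markers of other cell types, the called ones), and the 5 genes most like Itgb4 and Itgb1. Npnt and Hand2 were added after their values were seen. On simulated arrays of the same 18193 genes, the test recovered 73% of genes changed 1.5-fold and 98% changed 2-fold in siMyT1 against siControl, with 5 unchanged genes called, and 80%, 95% and 8 in siLSD1 against siControl. All genes changed in the simulation were drawn from those brighter than the median gene. These recovery rates thus cannot say how often a change in a dim gene would be called. They are therefore not applied to genes dimmer than the median gene, among them Itga5, Itga7, Itga9, Itgb4 and Itgb8. The main fit did not pair arrays by replicate number. Correlations of same-numbered deviations lay between -0.026 and 0.038, which cannot show whether those arrays were handled together, and the labels do not say. Alternatives covered normalization, pseudocounts, dim genes, probe sets, variance models, array weights, the replicate block and leaving out each array. No detection calls were used.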

Additional observations from a re-analysis of the deposited data

How the results depend on the processing

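Over 501 values of the 10 subunits under the alternatives, 461 kept their side of the threshold, 28 fell short of it and 12 passed it. In siMyT1 minus siLSD1, Itgav passed it under 5 of 17 alternatives and Itgb1 under 1. In siLSD1 minus siControl, Itgb1 passed it under 2, and Itga9 and Itgb5 under 1 each. In siMyT1 minus siControl, Itga7 passed it under 2 of 16. Of called differences 0 changed sign. Some uncalled ones did, such as Itgb1 in siMyT1 minus siControl under 4 alternatives. In siLSD1 minus siControl, the calls of Itgb4 and Itga6 held under every alternative run for them. Against 2 subunits called in siMyT1 minus siControl, 1 was called with median centring, 0 with the mean of all probe sets, 0 without an intensity trend and 1 with the replicate block, and 0 to 2 without 1 array. Against 4 in siLSD1 minus siControl, 2 were called with the mean of all probe sets, and that of Itga3 was also lost without an intensity trend and with the replicate block. Against 4 in siMyT1 minus siLSD1, 2 were called without probe sets marked s, x or a, where Itga7 and Itgb4 have no value. With the mean of all probe sets the calls of Itgav and Itga6 in siMyT1, of Itgav and Itga3 in siLSD1, and of Itga3 between the knockdowns were lost, and the dim probe sets enter with equal weight there. The filter on dim genes left out Itgb8.

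Over all genes, 1348 were called in siMyT1 minus siControl, 1619 in siLSD1 minus siControl and 3423 in siMyT1 minus siLSD1. Quantile normalization gave 2460 and 2804 for the differences from siControl, the mean of all probe sets 862 and 1079, no intensity trend 765 in siMyT1 and array weights 2966 in siLSD1. Without 1 array the counts ran from 650 (without siControl replicate 1) to 1450 in siMyT1 and from 965 (without siLSD1 replicate 3) to 1318 in siLSD1. The replicate block gave 935, 1259 and 2927. Of called genes 69.1%, 44.6% and 70.3% were higher in the 3 comparisons, against 55.6%, 50.8% and 55.7% with quantile normalization and 56.9%, 66.2% and 42.4% with median centring, which moved the median of all genes by -0.126 in siMyT1 minus siLSD1. Parva, a parvin, changed sign in siMyT1 minus siLSD1, at 0.10 with the mean of all probe sets and 0.47 without probe sets marked s, x or a, and in siLSD1 minus siControl, at -0.10 without them. Among the other named genes followed under the alternatives, no called difference changed sign. Npnt, Hand2 and the genes most like Itgb4 and Itgb1 were not followed there. The causes were not tested. Dim signal limits what can be said of Itgb8, Itga9 and the dim probe sets.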
